A study of Mus musculus with 2 samples.

Results

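Neutrophils that carried Ccl3 and Ccl4, the messages of a pair of inflammatory chemokines, at a high level were described in mouse quadriceps 9 h after a chemical injury. They were chosen by measured values from the 9 h library. A kept cell belonged to the neutrophils if at least 100 of every 10000 of its UMIs (unique molecules, the counts of a droplet library) came from S100a8 and S100a9, if it had a UMI of at least 3 of Csf3r, Il1r2, Hdc, Cxcr2, G0s2 and Retnlg, and if it had none of Pdgfra, Cdh5, C1qa and Ccr2. A neutrophil was a member if it had at most 2 UMIs of the granule genes Mmp8 and Ngp together and at least 100 UMIs of Ccl3 and Ccl4 together per 10000. There were 2018 members among the 8147 kept cells of the 9 h library and the 13047 kept cells of the series. The 1257 neutrophils of the same library that met every condition but lay under 100 per 10000 are called the compared cells.

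Both libraries came from C57BL/6J wild-type (WT) mice whose quadriceps had been injected with BaCl2 (barium chloride, 100 µl at 1.2% w/v), which destroys the fibres, and the muscle was taken at 2 h or at 9 h. Mononuclear cells were cryo-preserved, thawed and run on 10x Genomics 3' v3.1 chemistry, as 1 library per time. The labels used here give neither the age nor the number of the animals, and an uninjured library was not analysed here. With 1 library per time no difference could be checked against replicates, so no test was made and no p-value is given. Every interval is at 95%, covers counting error only and treats each UMI as independent, and leaves out the spread between cells.

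Neutrophils are short-lived white blood cells that enter injured muscle within hours, kill microbes and clear debris. CCL3 and CCL4 are small secreted proteins that draw monocytes, macrophages, lymphocytes and neutrophils into inflamed tissue. Their genes are among the classical targets of NF-kB, a transcription factor that signals from pattern receptors and from IL-1 and TNF switch on. On mm10, Ccl3 (ENSMUSG00000000982) lies on the minus strand of chromosome 11 from 83647844 to 83649355, and Ccl4 (ENSMUSG00000018930) lies close by on the plus strand from 83662584 to 83664683. Both are protein-coding genes.

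Among the genes that accompany Ccl3 and Ccl4 here are Il1rn, Ccrl2 and Hcar2, and the promoter windows of Ccl3, Il1rn and Ccrl2 are shown because these genes were higher together. Windows of 300 bases, 250 before the transcription start and 50 from it, were found for 3 of the 6 genes that mark these cells (RefSeq, GRCm38.p6). The Ccl3 window is chr11:83649329-83649628 on the minus strand, the Il1rn window chr2:24336610-24336909 on the plus strand, and the Ccrl2 window chr9:111057469-111057768 on the minus strand. Il1rn and Ccrl2 had 3 windows each, for different transcription starts. Only the most upstream window of each gene is shown and was read for the motifs. Each is printed 5′ to 3′ on the strand of its gene, and capitals mark matches to the motifs given after them.
Ccl3: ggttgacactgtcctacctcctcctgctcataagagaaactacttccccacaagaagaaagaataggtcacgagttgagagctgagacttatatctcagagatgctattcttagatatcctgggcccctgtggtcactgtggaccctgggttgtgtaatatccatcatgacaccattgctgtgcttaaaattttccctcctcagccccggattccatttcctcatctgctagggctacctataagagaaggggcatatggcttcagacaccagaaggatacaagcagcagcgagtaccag
Il1rn: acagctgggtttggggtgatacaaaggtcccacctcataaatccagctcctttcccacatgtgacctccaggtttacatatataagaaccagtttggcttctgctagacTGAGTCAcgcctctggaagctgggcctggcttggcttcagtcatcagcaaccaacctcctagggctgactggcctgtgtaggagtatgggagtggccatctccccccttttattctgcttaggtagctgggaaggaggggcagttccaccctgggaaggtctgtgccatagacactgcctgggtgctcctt
Ccrl2: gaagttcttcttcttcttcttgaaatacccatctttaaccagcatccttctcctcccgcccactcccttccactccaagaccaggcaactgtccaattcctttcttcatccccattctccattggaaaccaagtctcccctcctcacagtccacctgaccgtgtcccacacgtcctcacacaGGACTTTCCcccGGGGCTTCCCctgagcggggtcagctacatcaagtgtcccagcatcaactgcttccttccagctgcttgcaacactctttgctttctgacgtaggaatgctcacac
Both strands were searched for an AP-1 motif (TGANTCA), a C/EBP motif (TTGCNNAA), the kB consensus by its name, and a shorter kB form (GGNNTTTCC). The Il1rn window held TGAGTCA from -141 to -135, counted from the start base as 0. The Ccrl2 window held GGGGCTTCCC from -56 to -47, which matches the kB consensus on both strands, and GGACTTTCC from -68 to -60. No match lay in the Ccl3 window, which says only that these letters are not in it. Of 32851 windows of this length, 7.81% held the AP-1 motif, 10.8% the C/EBP motif, 8.46% the kB consensus and 5.82% the shorter form, so such matches are common and are a description of sequence only.

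The genes of the gate are given first as a description, since the rule chose cells by them. Members carried S100a8 at 44431 CPM (UMIs of a gene per 1000000 UMIs of the group) and S100a9 at 40806 CPM, the calprotectin subunits that fill neutrophil cytoplasm. All 6 of the other neutrophil genes had a UMI in 462 members (22.9%), 308 members (15.3%) had just 3 of them, and the median was 5. Il1r2, a decoy receptor for IL-1, stood at 2627 CPM, Hdc, which makes histamine, at 3139.6 CPM, and G0s2, an inhibitor of fat breakdown, at 4549 CPM. Markers of other cells were then read. Of lymphocyte markers 8 of 12 were at 0 in all members, as were 8 of 10 basophil and mast cell markers and 4 of 8 eosinophil markers. At least 1 UMI of the 15 monocyte and macrophage markers was found in 45.7% of members and 41.8% of compared cells, of the 10 FAP markers (FAPs are fibro-adipogenic progenitors, the connective tissue cells between the fibres) in 38.9 and 38.1%, and of the 9 endothelial markers in 21.3 and 18.4%. The source of these UMIs was not tested. Median depth was 1710 UMIs and 612.5 genes in members and 1540 UMIs and 610 genes in compared cells, with median mitochondrial shares of 0.458% and 0.503%. The libraries shared 20 barcodes, 3 of them members and 4 compared cells.

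The level of Ccl3 and Ccl4 in 9 h neutrophils was a continuous range, and the members are its upper side rather than a separate type. Members made up 61.6% of the 3275 granule-low neutrophils (exact Clopper-Pearson interval 59.9 to 63.3%), 51.4% of all 3929 gated neutrophils and 24.8% of kept cells. Per 10000 UMIs of a cell, the pair of chemokines took from 100.0 to 1678 UMIs in members, with a median of 253 and a middle 50% from 161 to 428. In raw counts the median member had 47 UMIs of the pair, the lowest 6 and the highest 527, and 245 members (12.1%) had fewer than 20. Compared cells had a median of 45.0 per 10000 and 7 raw UMIs, and 101 of them (8.04%) had neither gene. There were 104 cells from 90 to under 100 per 10000 and 94 from 100 to under 110, so the number of cells did not dip at the threshold. Just outside, Ccl3 was at 6545 and Ccl4 at 2964 CPM of the other UMIs, and just inside they were at 6235 and 4241 CPM.

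**Figure D1:**
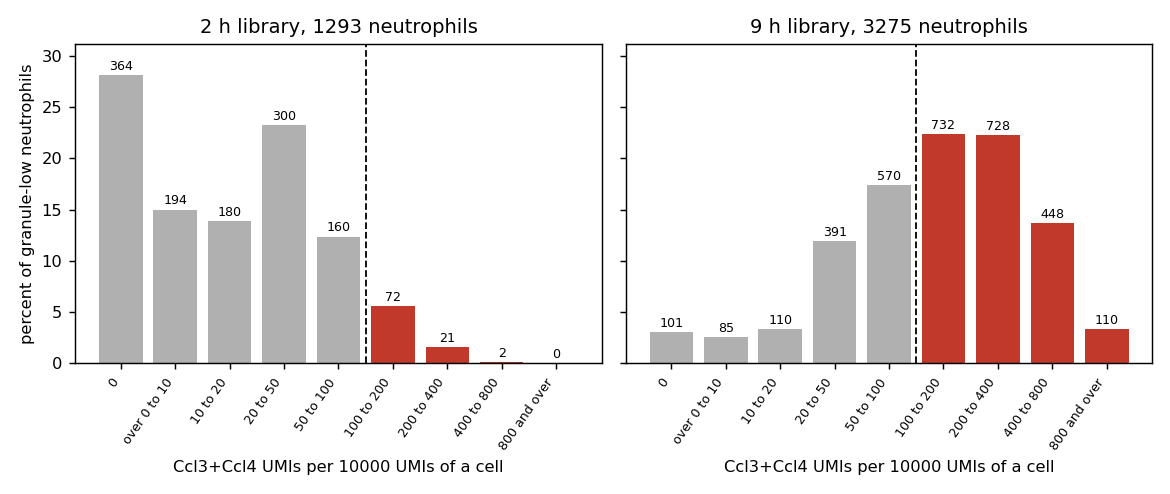
Granule-low neutrophils of each library by their Ccl3 and Ccl4 UMIs per 10000 UMIs of the cell (x axis), as a percent of these neutrophils (y axis), with the number of cells over each bar; the dashed line is the threshold of 100 and red bars lie at or over it. The bars cover ranges of unequal width, so their heights do not show where cells lie most densely. At 9 h the largest groups are 732 cells at 100 to 200 and 728 at 200 to 400, while at 2 h 364 cells have none and 95 reach the threshold.

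The members did not all carry the pair in the same ratio. UMIs of both genes were found in 1820 members (90.2%), of Ccl3 only in 164 and of Ccl4 only in 34. More Ccl4 than Ccl3 was counted in 1172 members (58.1%) and more Ccl3 than Ccl4 in 826 (40.9%). The median member had 56.6% of its pair in Ccl4, with a middle 50% from 30.5 to 74.2%. In compared cells the order was the other way round: 862 cells (68.6%) had more Ccl3 and 246 (19.6%) more Ccl4. At higher levels of the pair, Ccl4 took a larger part of it. From over 0 to under 50 per 10000 there were 0.342 Ccl4 UMIs per Ccl3 UMI (0.314 to 0.373), from 50 to under 100 there were 0.441, from 100 to under 200 there were 0.747, from 200 to under 400 there were 1.13, and at 400 and over there were 1.70 (1.68 to 1.73). The rule and the ranges were both cut on the sum of the pair. The part of each gene in that sum is therefore not independent of them, and the trend is given as a description. The 10% of members with the most UMIs of the pair held 30.2% of the UMIs of the pair in members.

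Ccl3 was at 14125 CPM in members and 3369 CPM in compared cells, and Ccl4 was at 18425 and 1393 CPM. These levels chose the cells and are given as a description. Granule-rich neutrophils (over 2 UMIs of Mmp8 and Ngp, genes of earlier maturation) spanned a like range: 330 of 654 (50.5%, 46.6 to 54.4%) reached the threshold, and those carried 12269 CPM of Ccl3 and 15128 CPM of Ccl4. Other cells of the 9 h library, which were not chosen by these genes, carried less than the neutrophils at or over the threshold. Monocytes and macrophages by gate had 1706 CPM of Ccl3 and 2076 of Ccl4, endothelial cells 1694 and 1519, and FAPs 199 and 261. For Ccl4, monocytes and macrophages and endothelial cells thus stood above the 1393 CPM of compared cells. By UMIs, members held 59.8% of the Ccl3 and Ccl4 of the 9 h library (59.6 to 60.0%), granule-rich neutrophils at or over the threshold 12.4%, the 1395 cells in none of the gates 10.7%, monocytes and macrophages 5.28%, compared cells 4.86% and FAPs 3.55%.

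UMIs of the pair were also found in FAPs, and whether these came from the cells themselves, from free RNA or from doublets was not tested. After thinning each cell to 1000 UMIs, Ccl3 had a UMI in 7.78% of FAPs and Ccl4 in 7.57% (unthinned 20.6 and 22.5%, at a median depth of 8695 UMIs), against 82.1 and 43.7% of 1137 compared cells and 98.0 and 90.1% of 1908 members (110 members and 120 compared cells were too shallow). The shares in compared cells thus lay over those in FAPs for both genes, also unthinned (85.6 and 50.8% of compared cells). Thinning took away a larger part of the UMIs of FAPs, since compared cells had a median depth of 1540 UMIs.

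The 15 genes named as highest in members against compared cells differed by less than 2-fold and were of several kinds, among them Inhba, Ccrl2, Il1a, Hcar2, Il1rn and Nlrp3 with roles in inflammatory signalling, and F3, F10, Slc20a1, Ralgds and Dock10 with other roles. Over 3824 measured genes (at least 100 UMIs in both groups together, with Ccl3 and Ccl4 left out), 1 gene, 0.0262%, was at least 2-fold higher in members (log2 ratio of CPM + 10). This was Serpinb2, an inhibitor of plasminogen activators, named after its value was seen: it had 34.4 CPM in members and 5.83 CPM in compared cells, and 38 of its 138 UMIs in members came from 1 cell. There were 59 genes, 1.54%, at least 2-fold lower; with TMM scaling the counts were 10 higher and 34 lower. The median log2 ratio of all measured genes was -0.14, and 27.5% were higher in members. Taking Ccl3 and Ccl4 out of the totals gave a median of -0.11 and 32.0%, and TMM scaling gave 0.11 and 66.4%. Ratios close to the median therefore have no settled direction, and the counts of genes are best read against it. The directions of all 15 genes named as highest were the same in the 20 other settings run.

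**Figure D2:**
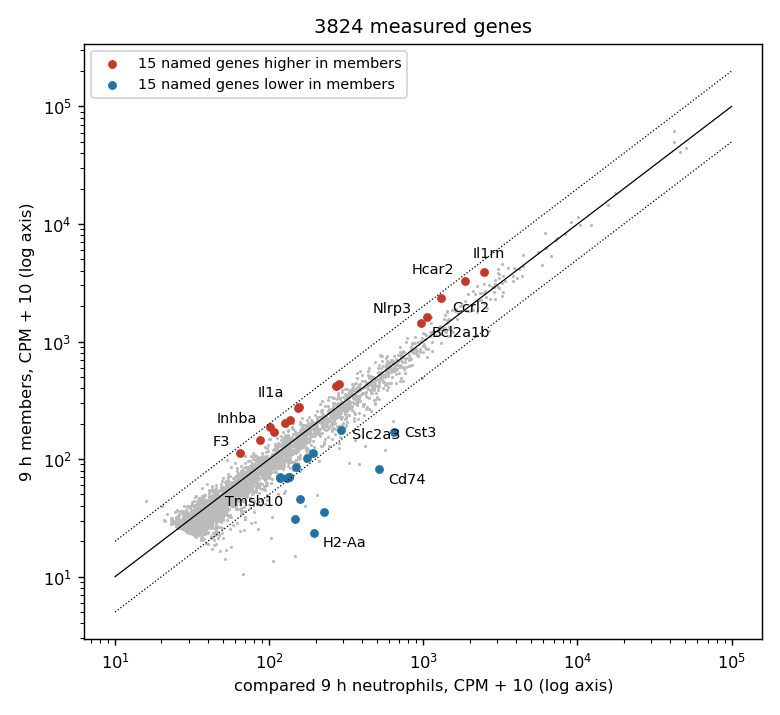
Level of each measured gene in compared 9 h neutrophils (x axis) and in members (y axis), both as CPM + 10 on log axes; the solid line is equality and the dotted lines are 2-fold. Named higher genes (red) lie between the line and the upper dotted line, while Cd74 at 504 against 72.0 CPM and H2-Aa at 184 against 13.7 CPM lie far under the lower one.

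Of the secreted signals, Cxcl2, the main neutrophil-drawing chemokine made by neutrophils themselves, was the most abundant: 61352 CPM in members and 42239 CPM in compared cells, a ratio of 1.45 (1.44 to 1.46). Per 10000 UMIs the median member had 568 of Cxcl2 and the median compared cell 410, and the ranges overlapped widely (11.3 to 1764 and 0 to 1502). Cxcl3, a close relative, was at 8369 and 6123 CPM, a ratio of 1.37. Of 4 measured CXC chemokines 3 were higher in members, with a median log2 ratio of 0.27, and of 5 measured CC chemokines other than the pair 2 were higher and 1 was at least 2-fold lower, with a median of -0.58. Cxcl1 was at 298 and 280 CPM and Cxcl5 at 275 and 333 CPM, and FAPs carried these at 5154 and 10981 CPM. In members at 100 to under 200 per 10000, 415 of the 890 Cxcl5 UMIs came from 1 cell. Ccl6, a chemokine of myeloid cells, was at 3049.7 and 2473 CPM, a ratio of 1.23 (1.19 to 1.27). Ccl2, which draws monocytes, was at 232 CPM in members and 351 CPM in compared cells, and 278 of its 931 UMIs in members came from 1 cell; FAPs carried it at 8520 CPM.

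The IL-1 family was higher on both of its sides, the agonists and the antagonist. Il1rn, the receptor antagonist that blocks IL-1, was at 3876 CPM in members and 2460 CPM in compared cells, a ratio of 1.58 (1.53 to 1.63). Il1a, the IL-1 form released by damaged and activated cells, was at 261 and 143 CPM, a ratio of 1.83 (1.61 to 2.08), and had a UMI in 21.8% of members and 11.6% of compared cells. Il1b, the secreted form, was abundant in both, at 10298 and 9062 CPM, a ratio of 1.14. Il1f9, which encodes IL-36 gamma, was at 1062 and 769 CPM. Nlrp3, the sensor whose inflammasome lets caspase-1 cut pro-IL-1β, was at 1609.9 and 1044 CPM, a ratio of 1.54 (1.47 to 1.62). The decoy receptor gene Il1r2 went the other way, at 2627 and 3296 CPM, a ratio of 0.797. Of 12 measured genes of this family 7 were higher, with a median log2 ratio of 0.10, and 9 with TMM scaling.

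Among other cytokines, Tnf was at 548 CPM in members and 377 CPM in compared cells, a ratio of 1.45 (1.34 to 1.58). Osm, an IL-6 family cytokine that acts on stroma, was at 753 and 516 CPM, Csf1, the macrophage growth factor, at 950 and 838 CPM, and Csf3, the granulocyte growth factor, at 89.1 and 43.5 CPM. Inhba, the subunit of activin A, had the highest log2 ratio of the named genes, 0.89, at 179 and 91.9 CPM (ratio 1.95, 1.67 to 2.29). It was carried by few cells, 13.97% of members and 7.24% of compared cells, and FAPs had 151 CPM of it. Of 9 measured genes in the list of other cytokines and growth factors 8 were higher in members, with a median of 0.41, and 9 with TMM scaling.

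Receptors stood on both sides. Ccr1, a receptor for CCL3, was at 2255 CPM in members and 2276 CPM in compared cells, a ratio of 0.991 (0.957 to 1.03). Ccrl2, which binds chemerin and presents it without signalling, was at 2348 and 1291 CPM, a ratio of 1.82 (1.74 to 1.90). Hcar2, a receptor for nicotinic acid and beta-hydroxybutyrate, was at 3252 and 1867 CPM, a ratio of 1.74 (1.68 to 1.80). The formyl peptide receptor gene Fpr1 was at 505 and 393 CPM, and the CXCL2 receptor gene Cxcr2 at 687 and 799 CPM. Of 12 measured chemoattractant receptors 8 were higher in members, with a median of 0.07. Of 13 cytokine receptors 3 were higher, with a median of -0.17. With TMM scaling these counts were 12 and 10. Over all measured genes 27.5% were higher, and 66.4% with TMM scaling. Csf3r, the receptor for G-CSF, was at 593 and 724 CPM. Cd14, a co-receptor for lipopolysaccharide, was at 7359.7 and 7279.5 CPM, and Clec4e, which senses dead cells, at 3712 and 3086 CPM.

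In thinned cells Ccrl2 had a UMI in 63.5% of members and 48.2% of compared cells, Hcar2 in 83.3 and 69.7%, Il1rn in 81.7 and 70.5%, and Cd24a in 75 and 71.0%; FAPs had 3.30, 3.84, 5.08 and 4.05%. Cd24a, a surface glycoprotein that dampens responses to tissue damage, differed least of these, at 2013 and 1727 CPM (ratio 1.17, 1.12 to 1.21).

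Genes of the NF-kB pathway were higher as a list, and mostly its inhibitors and targets. Of 22 measured members 19 were higher in members, with a median of 0.26 against -0.14 over all genes, and none was 2-fold off. Nfkbia, the inhibitor that NF-kB itself switches on, was at 5459.7 and 4415 CPM, Tnfaip3, the A20 brake, at 745 and 525 CPM, Nfkbid at 656 and 474 CPM, and Malt1, a protease of the CARD signalling complex, at 425 and 272 CPM (ratio 1.57, 1.43 to 1.72). The subunits themselves were close to level: Nfkb1 at 376 and 374 CPM, Rel at 329 and 317 CPM and Rela at 86.7 and 104 CPM. Ier3, an early response gene that guards against cell death, was at 4134 and 3023 CPM, and Gadd45b, a stress and MAP kinase regulator, at 1620.1 and 1107 CPM.

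Survival genes followed a like pattern. Bcl2a1b was at 1437 and 958 CPM, with an interval of the ratio from 1.43 to 1.58, and Bcl2a1a at 301 and 212 CPM; these anti-death genes of neutrophils are near-identical copies with Bcl2a1d, so reads could be split among them and single values are uncertain. Mcl1, on which neutrophil survival depends, was at 4139.9 and 3918 CPM. Cd274, the checkpoint ligand PD-L1, was at 192 and 117 CPM, a ratio of 1.64 (1.42 to 1.89). Of 13 measured survival and death genes 10 were higher, with a median of 0.16.

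Several named genes serve other ends. F10 (coagulation factor X) was at 205 and 126 CPM and F3 (tissue factor) at 103 and 54.3 CPM; F3 stood at 187 CPM in FAPs. Slc20a1, a phosphate importer, was at 266 and 147 CPM. Ralgds and Dock10, activators of small GTPases, were at 136 and 77.1 CPM and at 160 and 98.2 CPM, and Arid5b, a DNA-binding regulator, at 406 and 261 CPM. Acod1, which makes itaconate, was at 2973 and 2221 CPM and Ptgs2, which makes prostaglandin precursors, at 1785 and 1416 CPM. Spp1 (osteopontin) was at 2695 and 2082 CPM. Thbs1, a matrix protein gene abundant in these cells, was at 8142 and 8289.7 CPM.

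The genes that were lower had a different make-up: some are neutrophil genes, but the largest differences were those of genes that other cells carry at a high level. Among neutrophil genes, S100a8 was at 44431 CPM in members and 50392 CPM in compared cells (ratio 0.882), and Retnlg, a resistin relative, at 3492 and 4029 CPM. Both are gate genes, a list with 1 of 8 higher and a median log2 ratio of -0.20, against -0.14 over all genes. With TMM scaling 7 of the 8 were higher, with a median of 0.10, so the direction of this list depends on the scaling. Hp (haptoglobin) was at 531 and 745 CPM, and Mmp8, a collagenase used in the rule, at 170 and 256 CPM. Slc2a3, a glucose transporter of neutrophils, was at 166 and 284 CPM (ratio 0.583, 0.522 to 0.651), and Isg15, an interferon-induced modifier, at 93.1 and 166 CPM (0.561, 0.485 to 0.650). FAPs carried them at lower levels, 10.4 and 19.6 CPM. A UMI of Slc2a3 was found in 7.20% of FAPs and one of Isg15 in 10.1%, at their greater depth. After thinning these shares were 0.865 and 1.57%, against 12.4 and 6.71% of members and 17.4 and 10.5% of compared cells. Of 15 measured secondary and tertiary granule genes 7 were higher, with a median of -0.08. Of 7 NADPH oxidase genes 2 were higher (median -0.08), of 18 adhesion and shape genes 5 (median -0.11), of 12 interferon-stimulated genes 3 (median -0.14), and of 26 genes of glycolysis and the hypoxia response 9 (median -0.13). With TMM scaling these medians were 0.22, 0.21, 0.16, 0.09 and 0.16, beside 0.11 over all genes. Without TMM scaling 27.5% of all measured genes were higher, so the shares of these lists lay near or over that of all genes. No median of these lists was under that of all genes, -0.14.

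**Figure D3:**
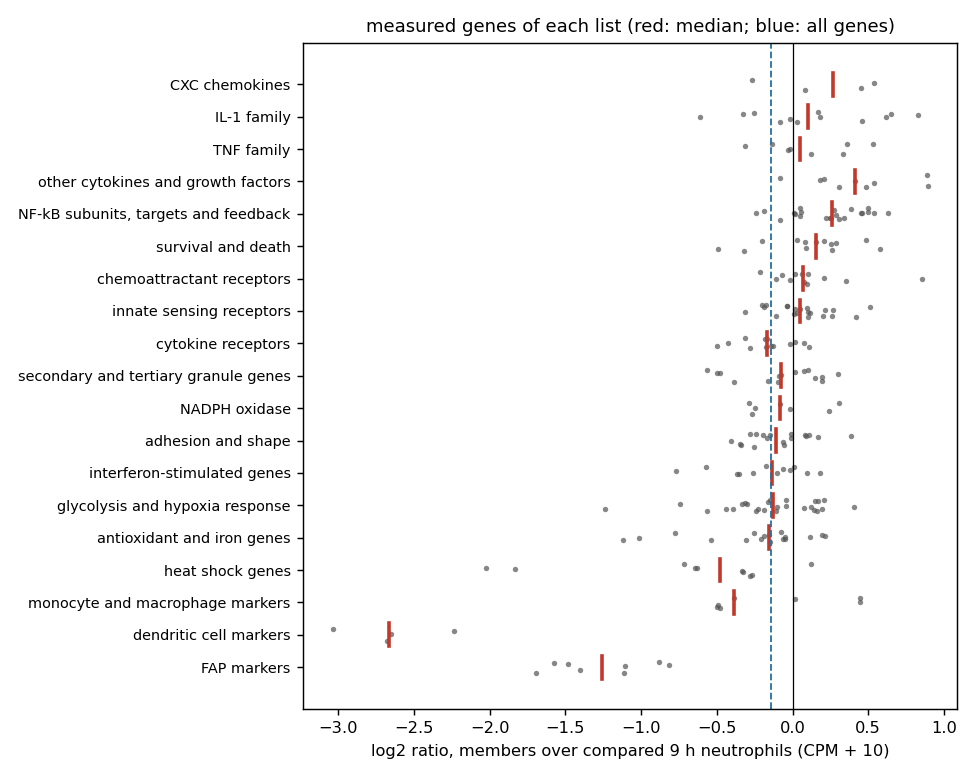
Log2 ratio of members over compared 9 h neutrophils (x axis, CPM + 10) for each measured gene (points) of 19 gene lists (y axis), with the median of each list in red and the median of all measured genes, -0.14, as the dashed blue line. The list of other cytokines has a median of 0.41 and that of NF-kB genes 0.26, while FAP markers have -1.26 and dendritic cell markers -2.66.

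Messages of antigen presentation, connective tissue and red cells were lower in members, and in compared cells much of their total came from few cells. The dendritic cell markers summed to 135 CPM in members and 1074 CPM in compared cells; Flt3, Ccr7 and Siglech were at 0 in members, and the highest single cell had 179 per 10000 in members and 768 in compared cells. All 4 measured genes of this list, H2-Aa, H2-Ab1, H2-Eb1 and Cd74, were at least 2-fold lower, yet the share of cells with a Cd74 UMI was 10.5% in members and 9.07% in compared cells. Of the 1125 Cd74 UMIs in compared cells 387 came from 1 cell. Hbb-bs, a haemoglobin gene, had 601 of its 607 UMIs in compared cells in 1 cell. The 10 FAP markers summed to 497 CPM in members and 1479 CPM in compared cells, with 8 measured, 0 higher and 6 at least 2-fold lower; Dcn was at 119 and 405 CPM, and Gsn at 202 and 622 CPM, of which 292 of 1387 UMIs in compared cells came from 1 cell. Yet a Dcn UMI was found in 11.1% of members and 9.39% of compared cells (6.71 and 6.77% after thinning). Monocyte and macrophage markers summed to 396 and 417 CPM, with Ms4a7 at 0 in members. The heat shock gene Hspa1a was at 39.8 and 193 CPM and the metal-binding gene Mt1 at 1224 and 2669 CPM; FAPs carried these at 916 and 30916 CPM.

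The comparison was therefore repeated without cells holding a UMI of Cd74, H2-Aa, Dcn, Hbb-bs or Hba-a1, a choice made after the data had been seen. It left 1567 members and 1024 compared cells and 3100 measured genes. The 5 genes were themselves at least 2-fold lower in members, so part of any fall in the lower count was fixed by the choice. Lower genes also left the measured set: dendritic cell markers went from 4 measured to 0, and FAP markers from 8 to 3. In this comparison 3 genes, 0.0968%, were at least 2-fold lower and 3, 0.0968%, at least 2-fold higher. The higher ones were Serpinb2, F3 and Inhba, with log2 ratios of 1.79, 1.03 and 1.002, and the lower ones were Isy1, Ctla2a and Rgs5, at -1.13, -1.07 and -1.03. Ctla2a owed 142 of its 313 UMIs in compared cells to 1 cell in the full comparison, where it was at 76.4 and 140 CPM. The log2 ratios of Ccrl2, Il1rn, Hcar2, Il1a and Nlrp3 were 0.77, 0.63, 0.75, 0.81 and 0.53 without these cells and 0.86, 0.65, 0.80, 0.83 and 0.62 with them. Hspa1a went from -2.02 to -0.60 and Mt1 from -1.12 to -0.60, while Slc2a3 and Isg15 were at -0.91 and -0.86 against -0.74 and -0.77.

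Other named lower genes were mostly of low level. Cst3, a cysteine protease inhibitor rich in mononuclear phagocytes, was at 161 and 631 CPM, and Tmsb10, an actin-binding peptide, at 36.1 and 149 CPM; without the same cells their log2 ratios were -0.33 and -0.98 against -1.90 and -1.79. Isy1, a splicing factor, was at 59.8 and 124 CPM, Tspo, a mitochondrial outer membrane protein, at 60.8 and 125 CPM, and Rock2, a kinase of cell contraction, at 58.5 and 120 CPM. Trf (transferrin) was at 104 and 183 CPM, Cmtr1, a cap methyltransferase, at 59.8 and 108 CPM, and Napsa, an aspartic protease, at 59.5 and 107 CPM.

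Across the range of Ccl3 and Ccl4 several accompanying genes were graded. Levels here leave Ccl3 and Ccl4 out of the totals. Cxcl2 was at 37480 CPM in cells with neither gene, 40309 CPM over 0 to under 50 per 10000, 45170 CPM at 50 to under 100, 51341 CPM at 100 to under 200, 64978 CPM at 200 to under 400 and 77966 CPM at 400 and over. Il1rn was at 1851, 2221, 2797, 3161, 4279 and 4796 CPM in the same ranges. Ccrl2 was at 587, 1171, 1512, 1838, 2632 and 2954 CPM, the steepest of these. Hcar2 was at 1806 and 1659 CPM in the lowest ranges and at 4057 CPM in the highest. Tnf went from 196 to 752 CPM from end to end, Nlrp3 from 978 to 2066 CPM and Il1b from 8127 to 11749 CPM. In contrast Ccr1 stayed between 2213 and 2376 CPM, and Thbs1 between 7946 and 8570 CPM. Il1r2 was at 4552 CPM in cells with neither gene and 2425 CPM at 400 and over, S100a8 at 57097 and 43184 CPM, Cxcr2 at 1166 and 626 CPM, and Tspo at 196 and 42.9 CPM. Just outside the threshold (90 to under 100) and just inside (100 to under 110) Il1rn was at 3191 and 3241 CPM, Ccrl2 at 1579 and 1311 CPM and Hcar2 at 2283 and 2308 CPM, with intervals that overlapped. Of the 66 genes read in these ranges 5 were higher just inside with intervals that did not overlap: Cxcl2 (45278 and 49705 CPM), Cxcl3 (5667 and 7501 CPM), Nfkbia (4088 and 4909.7 CPM), Slpi (3213 and 4275 CPM) and Fth1. Lower just inside by the same measure were 9, among them S100a9, Thbs1, Cd74 and Hspa1a. Several of these rest on single cells just outside. There 1 cell held 74 of the 84 Cd74 UMIs, 151 of the 186 Cst3 UMIs, 24 of the 25 H2-Ab1 UMIs and 14 of the 20 Hspa1a UMIs. These 14 were picked after their values were seen, and the same count was not made over all measured genes. The intervals also leave out the spread between the 104 and 94 cells. The count can therefore not be read as a step at the threshold. Median depth went from 1346 UMIs in cells with neither gene to 1710 UMIs at 400 and over, and its part in the gradient was not tested. The share of cells with a UMI of the 5 genes of other cells was 12.9% in cells with neither gene, 24.7% at 100 to under 200 and 20.4% at 400 and over.

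**Figure D4:**
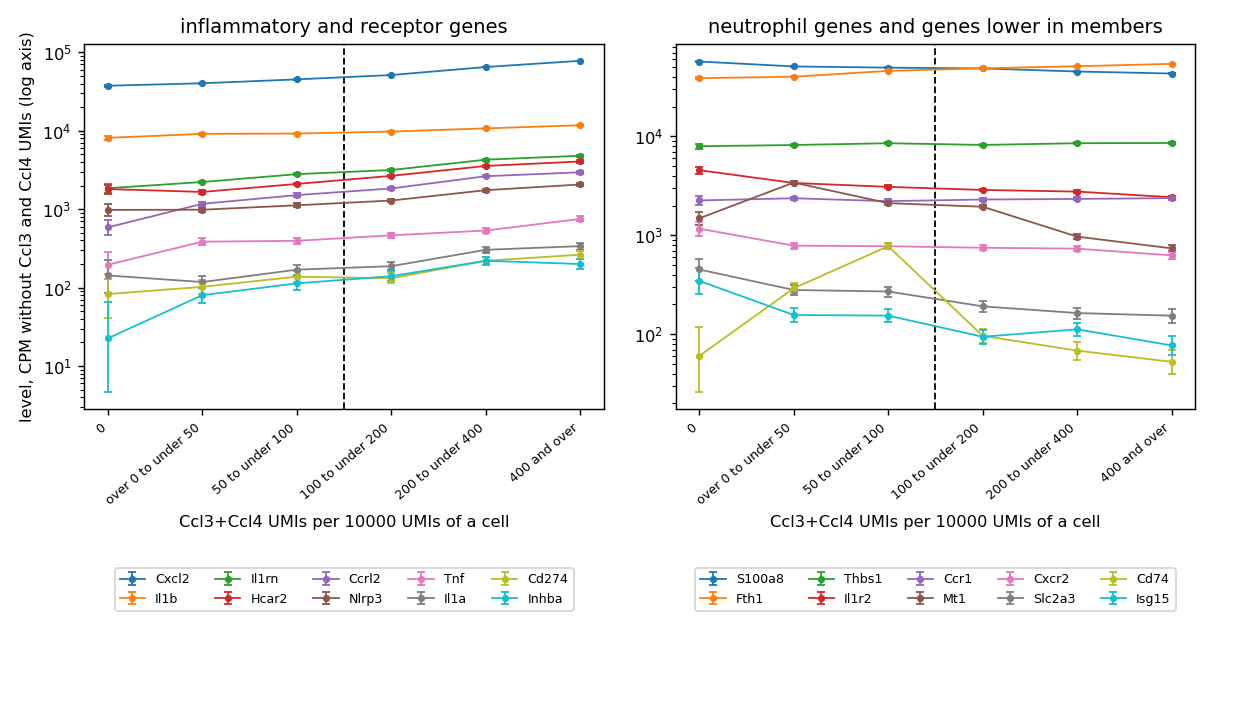
Level of 20 genes (y axis, CPM with Ccl3 and Ccl4 UMIs left out of the total, log axis) in 9 h granule-low neutrophils by the range of Ccl3 and Ccl4 UMIs per 10000 (x axis); bars are exact Poisson intervals and the dashed line is the threshold. Ccrl2 runs from 587 to 2954 CPM and Tnf from 196 to 752 CPM, Ccr1 stays between 2213 and 2376 CPM, and Cd74 stands out at 776 CPM in cells at 50 to under 100.

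The same genes were graded within the members. Cells at 400 and over per 10000 (558) were set against cells at 100 to under 200 (732). Of 2191 measured genes 2, 0.0913%, were at least 2-fold higher, F3 and Serpinb2, and 45, 2.05%, at least 2-fold lower; the latter held ribosomal protein genes and genes of stroma such as Ccl2, Cxcl5, Prg4 and Dcn. With Ccl3 and Ccl4 in the totals, ratios were 1.90 for Cd274 (1.57 to 2.31), 1.71 for Il1a (1.46 to 2.02), 1.53 for Ccrl2 (1.45 to 1.61), 1.52 for Nlrp3 (1.43 to 1.62), 1.45 for Hcar2 and 1.44 for Il1rn. Cd24a had a ratio of 1.05 (0.993 to 1.11). Of 22 measured NF-kB genes 15 were higher in the upper members, with a median of 0.16, while the median of all measured genes was -0.17. Ccl2 had a ratio of 0.123 and Cxcl5 of 0.142. At 100 to under 200 they stood at 542 and 626 CPM without the pair in the totals, and at 200 to under 400 at 61.3 and 82.2 CPM. In the former range 1 cell held 278 of the 771 Ccl2 UMIs and 1 cell held 415 of the 890 Cxcl5 UMIs.

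The same rule read in the 2 h library found few such cells. Of 1293 granule-low 2 h neutrophils 95 reached the threshold (7.35%, 5.98 to 8.91%), and 364 (28.2%) had no UMI of either gene, against 101 (3.08%) at 9 h. The highest 2 h cell had 464 per 10000 and the median of the 95 was 137. They carried Ccl3 at 7712 CPM and Ccl4 at 9181 CPM and held 16.0% of the Ccl3 and Ccl4 UMIs of that library, while its monocytes and macrophages held 32.6% and its other granule-low neutrophils 25.1%. Median depth was 2026 UMIs in the 95 cells, above that of the 9 h members. Because each time is 1 library, the time and the library cannot be told apart.

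The 2 h cells took no part in the choice of the named genes. Of the 15 named as higher, 9 had at least 100 UMIs there and 8 of these were higher at 2 h in cells at or over the threshold; the exception was Slc20a1, at 85.5 and 86.4 CPM. Of 2484 measured genes 35.7% were higher, 13 (0.523%) at least 2-fold, and 139 (5.6%) were at least 2-fold lower. The 95 cells at or over the threshold held 198781 UMIs and the cells under it 2487049, so genes were measured mostly through the latter. Many of the 139 genes therefore rest on few UMIs in the 95 cells, such as Meg3 at 0 and 76.0 CPM. Il1rn was at 1927 CPM over and 938 CPM under the threshold (ratio 2.05, 1.84 to 2.29), Ccrl2 at 1021 and 528 CPM (1.93, 1.66 to 2.24), Nlrp3 at 1589.7 and 877 CPM (1.81), Malt1 at 267 and 86.8 CPM (3.07) and Hcar2 at 1801 and 1188 CPM (1.52, 1.35 to 1.69). Cxcl2 was at 40643 and 21789.7 CPM, Cxcl3 at 3934 and 1515 CPM, Il1b at 12159 and 8147 CPM, Ptgs2 at 2676 and 1296 CPM and Traf1, a TNF receptor adaptor, at 136 and 42.6 CPM. Cd24a was at 1067 and 914 CPM, with the same ratio of 1.17 as at 9 h. Of 18 measured NF-kB genes 16 were higher, with a median of 0.64 against -0.14 over all genes. Ccr1 was again level, at 3159 and 3026 CPM. Of the 15 named as lower, 12 were measured and 10 were lower; Slc2a3 was at 553 and 826 CPM, while Trf and Cmtr1 were higher. By level, FAP markers went the same way as at 9 h: 9 were measured and 0 were higher. The share of cells with a Dcn UMI was not lower, at 30.5% at or over the threshold and 22.0% under it. After thinning these shares were 17.0 and 13.5%, with overlapping intervals.

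**Figure D5:**
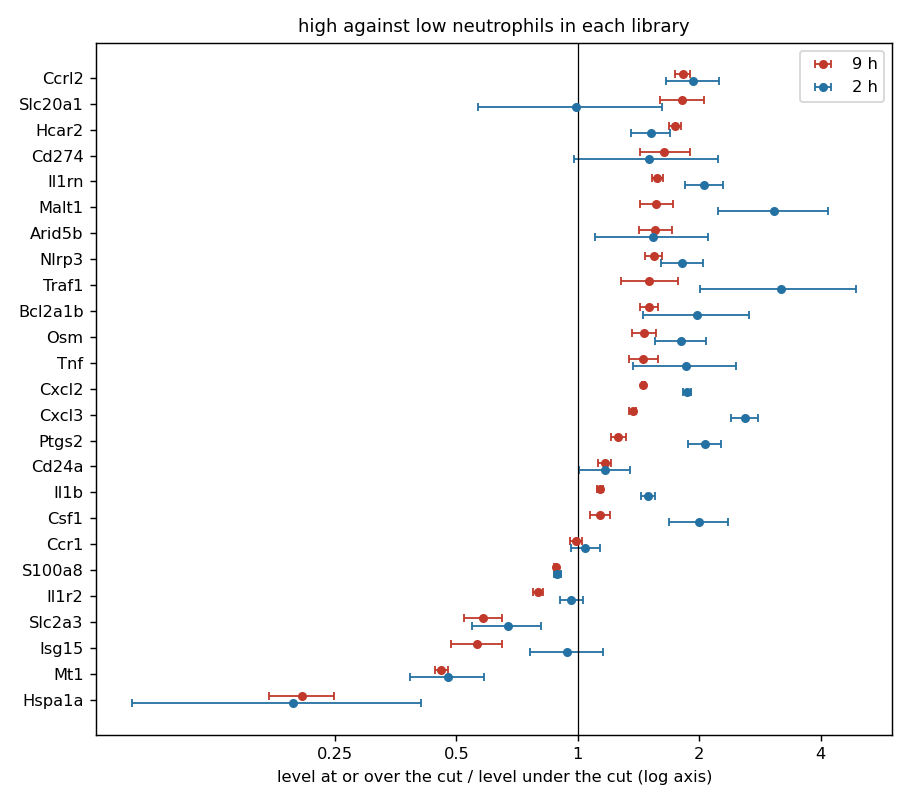
Ratio of the level in neutrophils at or over the threshold to that in neutrophils under it (x axis, log axis) for 25 genes (y axis), at 9 h (red) and 2 h (blue), with exact conditional binomial intervals. Ccrl2 is at 1.82 and 1.93, Cxcl3 at 1.37 and 2.60, Ccr1 close to 1 at both times, and Hspa1a at 0.207 and 0.197.

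Levels of the marker genes also differed between the libraries on both sides of the threshold. Compared cells at 9 h carried Il1rn at 2460 CPM, Ccrl2 at 1291 CPM and Hcar2 at 1867 CPM, against 938, 528 and 1188 CPM in 2 h cells under the threshold. The 9 h cells under the threshold also stood above the 2 h cells over it for Il1rn (2460 and 1927 CPM), Ccrl2 (1291 and 1021 CPM) and Cd24a (1727 and 1067 CPM), with counting intervals that did not overlap. For Hcar2 these were at 1867 and 1801 CPM, with overlapping intervals. Granule-rich neutrophils of the 9 h library showed a like order, with Ccrl2 at 1945 CPM over and 957 CPM under the threshold, Il1rn at 3181 and 1547 CPM and Hcar2 at 2934 and 1640 CPM.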

How the data were processed

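The deposited files hold counts, whole numbers of UMIs for each gene in each cell barcode, as deposited by the authors; Cell Ranger 5.0.0 and the mm10 build are named in the submitters' processing notes. The release of the gene annotation was not given in the sources used here, and 32158 of 32285 genes (99.6%) were matched by identifier to GENCODE M21. Barcodes with at least 200 genes, at least 500 UMIs and at most 20% mitochondrial UMIs were kept: 4900 of 5729 at 2 h (27598413 UMIs) and 8147 of 8790 at 9 h (35127600 UMIs). Doublets were not removed, since Scrublet (in Scanpy 1.11.5) called 0 at 9 h; leaving out the 573 highest scores, 93 of them members and 66 compared cells, was an alternative.

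UMIs were summed over the cells of a group and given as CPM; log2 ratios used a pseudocount of 10 CPM. Levels carry exact Poisson, shares exact binomial and ratios exact conditional binomial intervals. The interval of a ratio was tried on simulated sums with independent UMIs, which the interval itself assumes. That trial does not cover the spread between cells. TMM factors came from edgeR 4.0.16 in R 4.3.3; no model was fitted. Named genes are the 15 with the highest and the 15 with the lowest log2 ratio among measured genes whose level in the higher group was 100 CPM or more and no less than 20% of that in all kept 9 h cells. Ccl3 and Ccl4, haemoglobin, mitochondrial and ribosomal protein genes, and gene models without a name, were left out. Also named are the marker and gate genes, the receptor gene Ccr1, and from each of 42 gene lists the members with the highest level or largest ratio. Some genes that these rules name are not reported here. The members and lists were chosen with earlier results of these data known. Thinning used seed 0. A gene counts as measured with at least 100 UMIs over both groups.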

Additional observations from a re-analysis of the deposited data

How the results depend on the processing

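The share of members among 9 h neutrophils was 79.0% with a threshold of 50 per 10000, 39.3% with 200, 59.8% with granule-rich cells kept in and 63.3% with the threshold read after thinning to 1000 UMIs; 1842 of 1908 members deep enough stayed over it and 86 of 1137 compared cells crossed it. The 2 h share was 19.7% at 50 and 1.78% at 200. Members' share of 9 h Ccl3 and Ccl4 UMIs was 63.3% at 50, 50.2% at 200, 55.8% with S100a8 and S100a9 at 200, 61.8% and 52.4% with at least 2 or 4 neutrophil genes, 57.3% with a mitochondrial limit of 10%, 58.5% with 1000 UMIs and 72.1% with granule-rich cells. Genes at least 2-fold higher and lower, 1 and 59, were 3 and 107 with a pseudocount of 1 CPM, 0 and 21 with 50 CPM, 10 and 34 with TMM scaling, 2 and 19 with each cell weighted alike, 2 and 120 with compared cells weighted to the members' depth, and 12 and 121 for cells at 200 or more against under 50. The higher count was 2 without Ccl3 and Ccl4 in the totals and 3 at a threshold of 50; the lower count was 124 at 200 and 20 without the highest doublet scores. Without cells with a UMI of Cd74, H2-Aa, Dcn, Hbb-bs or Hba-a1 the counts were 3 and 3. That setting and the thinned threshold were added after seeing the data. Of 620 values of named genes over 20 settings 444 moved by less than their counting interval, 172 by more, and 4 turned sign: Ctla2a (0.046 at a threshold of 50, 0.020 without the highest doublet scores, 0.48 with the thinned threshold) and H2-Ab1 (0.39 without cells with a UMI of the 5 genes). The cause was not tested. Genes at low counts have wide intervals, such as 3.34 to 11.4 for the ratio of Serpinb2. No paired analysis was possible because each time has 1 library.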
